A study of Homo sapiens with 17 samples.

Results

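Translation initiation factors were taken as every gene in the table whose symbol starts with EIF followed by a digit from 1 to 6, leaving out the EIF4EBP genes. The rule found 51 of 9699 genes. One of them, a Y-linked copy of EIF1A, was only counted. The values of the other 50 are given here, and all 50 passed the filter on low values (a geometric mean of at least 2 FPKM over the columns), as did 8831 genes in all. The symbols hold 42 genes counted here as initiation factors (EIF4A3 and EIF1AD by name and sequence family) and 8 other genes, which are the 4 EIF2 kinases (EIF2AK1 to EIF2AK4), 3 Argonaute genes listed under their old names EIF2C1 to EIF2C3, and the EIF4E transporter EIF4ENIF1.

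The data come from BJ cells, human primary fibroblasts that carry hTERT, the catalytic subunit of telomerase, in every group. RNA-Seq measured mRNA levels, and Ribo-Seq, the sequencing of mRNA fragments protected by ribosomes, measured translation. The groups were proliferating cells in normal medium, cells made quiescent by serum depletion, pre-senescent cells after 5 days of RASG12V induction, senescent cells after 14 days of it, and transformed cells. RASG12V, an oncogenic form of RAS, was switched on with 4-OHT-Tamoxifen in hTERT cells that carry the inducible construct. The transformed cells carried hTERT, a p16INK4A knockdown, a second knockdown and SV40 small T, and were transduced with a RASG12V retrovirus. In all, 17 samples were combined by the authors into 12 columns of FPKM, 1 per assay for each of 6 sets of cells, because proliferating cells were sequenced in each of 2 runs. The first run held proliferating, quiescent and pre-senescent cells, and the second proliferating, senescent and transformed cells. Columns of the first run pool 2 samples each, apart from Ribo-Seq of pre-senescent cells, and every column of the second run is 1 sample. Hence each condition had 1 value per gene and assay, with no replicate error and no test. A difference was called when it was past 1.5-fold (0.585 on the log2 scale). The difference between the proliferating cells of both runs is given beside it as the only gauge of spread at hand. It is a difference between runs and not the error within a run, and the paper reports lower reproducibility between runs than within them.

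Initiation brings the small ribosomal subunit to the start codon of an mRNA. EIF2 carries the initiator tRNA as a ternary complex with GTP, and EIF2B recharges EIF2 with GTP after each round. Under stress, 1 of 4 kinases phosphorylates EIF2, which turns it into an inhibitor of EIF2B. EIF3, the largest of the factors, holds the small subunit and bridges it to the mRNA. EIF4E binds the cap, EIF4G is the scaffold, EIF4A is the helicase that unwinds the leader, and EIF4B and EIF4H stimulate it. The 4E-binding proteins keep EIF4E from EIF4G until mTOR phosphorylates them. EIF5 and EIF5B then trigger GTP hydrolysis and joining of the large subunit. Many mRNAs of the translation machinery start with a C and a run of pyrimidines (the 5′ terminal oligopyrimidine or TOP tract), through which mTOR controls their translation.

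Some labels and values bear on what follows. Ribo-Seq samples titled for senescence and for second-run proliferation each carry the condition label of the other, and were assigned here by title, as the columns are named. Proliferation markers were lower in senescent than in proliferating cells for 7 of 7 genes in RNA-Seq and 7 of 7 in Ribo-Seq under that assignment, and Pearson's r between the RNA-Seq and Ribo-Seq differences was 0.84 across 8831 genes, which share columns and are not replicates. Summed over the 7 markers, levels in senescent and proliferating cells were 20.7 and 323 FPKM in RNA-Seq and 36.4 and 487 in Ribo-Seq as titled. For these markers the titles, and not the condition labels, thus go with the RNA-Seq columns. Values in senescent and transformed cells are given with the columns as titled. For the members and complexes that the results turn on, values with both exchanged are added to show how far they rest on the assignment. Differences between runs in Ribo-Seq and TE use the column titled for proliferation. In the library labelled transformed, RNA of CDKN2A, which encodes p16INK4A, was 12.6 FPKM, above the 6.75 in proliferating cells of its run. Its Ribo-Seq value was 5.51 against 8.92 as titled. RNA was thus not lower in the cells labelled with the knockdown, while footprints were, and the level of p16INK4A itself was not measured. RNA of HRAS, a RAS gene, was 312 FPKM in that library, below the 1254 to 2415 of the other 5 sets of cells, proliferating cells included, and its Ribo-Seq value of 212 was also the lowest. RNA of ESR1 differed by -6.67 (log2) between that library and proliferating cells of its run, the lowest value of all genes tested. In senescent against transformed cells it differed by 7.17, the highest. The RAS gene behind the RASG12V label, and whether the proliferating cells also carried the inducible construct, were not tested. All values called transformed below refer to the library with that label. Fibroblast markers were above the floor of 1 FPKM for 9 of 9 genes in every column. Of the markers of other cell types only KRT18 was in the table, at 84.5 to 257 FPKM in RNA-Seq. In bulk cultures, fewer cells of a kind and less RNA per cell cannot be told apart, and FPKM, a share of each library, does not show a change in all translation together.

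To show the annotated starts of the members, 25 bases around the start (5 before it and 20 from it) are printed for a few that the results below turn on. They are from RefSeq, GRCh38.p14, 5′ to 3′ on the transcribed strand, and capitals mark a C followed without a break by at least 4 bases that are each C or T, where such a run begins within 5 bases of the annotated start. The first 6 genes hold a run, and the last 3 do not.
EIF4B (chr12:53006451-53006475, plus strand): cgggtCTTTTgcgttctctttccct
EIF3D (chr22:36529147-36529171, minus strand): gtttCCTCTTTTCCTggtttctcaa
EIF3K (chr19:38619183-38619207, plus strand): accaCCTCTTCCTgttcccgtcctt
EIF2A (chr3:150546782-150546806, plus strand): ggtttCTCTTTCCgggacaacatgg
EIF2D (chr1:206612446-206612470, minus strand): cgggCCCTTTTCgcggccgggcccc
EIF2S3 (chrX:24054951-24054975, plus strand): CCTTCCTCTTTTggcaacatggcgg
EIF4A1 (chr17:7572820-7572844, plus strand): tccgccctagtttctaaggatcatg
EIF4H (chr7:74174351-74174375, plus strand): tcaccctggttcctctcggagcgga
EIF3B (chr7:2354822-2354846, plus strand): cgcacatggctgggctgtagccgtc
The run of EIF3D, at 11 bases, and that of EIF2S3, at 12, were longer than that of EIF4B, at 5. A sequence was matched for 42 of the 50 members, 16 of which held a run (38.1%), beside 52 of 61 cytosolic ribosomal protein genes (85.2%), 30.2% of all genes tested that had a sequence, and 21.1% of all 35116 sequences of the same length. Only the transcribed strand was read. EIF2S2, EIF2AK1, EIF2C2, EIF3A, EIF3E, EIF3G, EIF3H and EIF3L had no matched sequence.

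In proliferating cells of the first run, RNA levels of the 50 members spanned from 4.12 FPKM for EIF2AK3 to 809 for EIF4A1, the main helicase, with a median of 39.9 FPKM against 15.6 over all genes tested. FPKM is a level per length, so genes can be set side by side. Complexes differed in their subunit levels. EIF3 subunits had a median of 138 FPKM, from 5.53 for EIF3C to 249 for EIF3I. The 5 EIF2B subunits lay in a narrow band, from 26.3 for EIF2B1 to 36.6 for EIF2B3. EIF2 subunits stood at 40.0 (EIF2S1, alpha, the subunit that is phosphorylated), 95.0 (EIF2S2, beta) and 41.0 FPKM (EIF2S3, gamma). The 9 EIF4 factors ranged in RNA from 25.8 for the EIF4E relative EIF4E2 to EIF4A1 at the top. Among the start codon factors, EIF1 had 221 FPKM and EIF1AD, which shares the EIF1A domain, 13.2. EIF6, which keeps the large subunit from joining too early, had 141, and EIF5B 46.7 FPKM. EIF3C has a near-identical copy, EIF3CL, and EIF5A has near-identical copies such as EIF5AL1. Only uniquely mapped reads were counted, so the levels of EIF3C, EIF5A and EIF5AL1 are uncertain.

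Translation efficiency (TE), the Ribo-Seq level over the RNA level on the log2 scale, separated subunits of 1 complex even in proliferating cells. EIF2S1 and EIF2S3 had nearly equal RNA levels, but footprints of 251 and 37.9 FPKM, hence TE of 2.65 and -0.11. In the second run, TE of EIF2S1 was 2.52 and that of EIF2S3 0.38, so the order held in both runs. RNA was counted over the whole transcript and footprints over the coding sequence. TE set between genes may thus also depend on the annotated transcript, which was not tested. The highest TE of the members was that of EIF5A (3.90, uncertain for its near-identical copies), which helps ribosomes past hard peptide bonds. The lowest was that of EIF2C1 (-2.53). TE of the median member was 0.67 in the first run and 0.66 in the second, against 0.42 and 0.45 over all genes tested. EIF2D, which can deliver initiator tRNA without EIF2, was low in TE in all 6 sets of cells, from -1.73 in quiescent to -0.89 in proliferating cells of the first run. EIF2AK4 (GCN2, the kinase that senses amino acid lack) was also low throughout, from -1.46 to -1.14.

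The first comparison asked how serum depletion bears on the factors. Their mRNAs were nearly as abundant in quiescent as in proliferating cells, but carried fewer footprints. The median difference over the 50 members was -0.11 in RNA, -0.53 in Ribo-Seq and -0.36 in TE (log2), beside -0.02, -0.09 and -0.06 over all genes tested. RNA was called lower for 2 members (EIF5A and EIF5AL1) and higher for 1 (EIF2AK3), where 8.93% of all genes were called lower and 10.3% higher. Ribo-Seq was lower for 23 of 50 and higher for 2, where the background was 22.7% and 17.8%. TE was lower for 12 of 50, which is 24.0%, and higher for 2, against 13.3% and 10.6% of all genes. Of the 12, 11 differed by more than their own difference between runs, as did 966 of the 1176 genes called lower among all genes tested. At a 2-fold threshold, TE was lower for 3 and Ribo-Seq for 3, and against proliferating cells of the other run TE was lower for 16 and Ribo-Seq for 10. By the spread of genes of like level (local SDs, the kind of threshold in the study's methods), Ribo-Seq was lower for 0 and TE for 4.

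EIF4B had the largest TE difference in quiescence. EIF4B RNA was 187 in proliferating, 237 in quiescent and 189 in pre-senescent cells of the first run, and 174 in proliferating, 139 in senescent and 147 in transformed cells of the second run (FPKM). Ribo-Seq of EIF4B was 292, 157, 200.1, 182, 142 and 203 FPKM in the same order. It was thus the member with the largest footprint loss per mRNA in quiescence, with an RNA level above that of every other set of cells. TE of EIF4B differed by -1.23 (a ratio of 0.426), and its own difference between runs was -0.58. EIF4H, the other partner of EIF4A, had a TE difference of -0.55, short of a call, with RNA of 215 and 166 FPKM.

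The EIF3 complex did not move as 1 unit. TE was called lower for 5 of its 13 measured subunits (EIF3E, EIF3L, EIF3C, EIF3K and EIF3D) and higher for none, and was below 0 for 11 of 13. EIF3E RNA was 143 in proliferating, 152 in quiescent and 172 in pre-senescent cells of the first run, and 93.2 in proliferating, 124 in senescent and 106 in transformed cells of the second run (FPKM). Ribo-Seq of EIF3E was 261, 129.8, 229.8, 164, 241 and 219.6 FPKM in that order, lowest in quiescence, for a TE difference of -1.10 where the runs differed by -0.06. EIF3L, which pairs with EIF3K in the complex, had RNA of 158, 179, 169.9, 118, 110.5 and 124 FPKM. Its footprints were 166, 89.1, 172, 99.4, 88.5 and 119.6 FPKM, lowest in senescent and quiescent cells, although the second-run proliferating cells were low too. TE of EIF3L differed by -1.08 in quiescence and by -0.07 in senescence (0.26 exchanged). The core subunits EIF3A, the largest, and EIF3B, the scaffold, were on the other side of 0, with TE differences of 0.13 and 0.12. EIF3A footprints were 324 FPKM in proliferating and 329.7 in quiescent cells. EIF3C was low in all columns, at 5.53 and 5.09 FPKM in RNA.

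Of EIF2 and EIF2B, no subunit was called in TE in quiescence. TE differences of EIF2 subunits ran from -0.41 to -0.06, and those of EIF2B subunits from -0.39 to 0.05. EIF2S1 footprints were nonetheless 251 FPKM in proliferating and 131 in quiescent cells, with RNA also lower, at 40.0 and 27.8. RNA of all 5 EIF2B subunits was below that of proliferating cells, with a median difference of -0.40 and none past 1.5-fold. All 5 were also below 0 in proliferating cells of the second against the first run, at a median of -0.49. Only 1 of them differed by more in quiescence than between runs. The factors that deliver initiator tRNA without EIF2 were both called lower in TE. EIF2A had RNA of 56.0 and 58.0 FPKM with footprints of 49.8 and 31.2. EIF2D had RNA of 31.4 and 33.2 FPKM with footprints of 16.9 and 10.0. Start codon factors EIF1AX and EIF1 were called lower in TE, at -0.76 and -0.59, the latter just past the threshold.

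The cap-binding side went the other way for the scaffold. EIF4G1 RNA was 184 in proliferating, 134 in quiescent and 187 in pre-senescent cells of the first run, and 159 in proliferating, 160.4 in senescent and 182 in transformed cells of the second run (FPKM). Ribo-Seq of EIF4G1 was 207, 228, 265, 170.1, 236 and 214 FPKM in that order, and the proliferating column was the lowest of each run as titled. TE differed by 0.60 in quiescence, 0.33 in pre-senescence and 0.46 in senescence, with -0.07 between runs, and only the first was past 1.5-fold. With the Ribo-Seq columns of senescent and proliferating cells exchanged, the senescent value was on the other side of 0, at -0.49. Its relative EIF4G3 differed by 0.27, 0.38 and 0.61 (0.19 exchanged). EIF4E, the cap-binding protein itself, had a TE difference of -0.23 in quiescence. EIF4A1 RNA was 809 in proliferating, 544 in quiescent and 951 in pre-senescent cells of the first run, and 551 in proliferating, 573 in senescent and 757 in transformed cells of the second run (FPKM). Footprints on EIF4A1 were 1541, 828, 1182, 1144, 934 and 1515 FPKM, lowest in quiescence, with differences of -0.57 in RNA and -0.32 in TE, neither past 1.5-fold.

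Some of the other members stood apart in RNA. EIF2AK3 (PERK, the kinase that senses unfolded protein in the endoplasmic reticulum) had RNA of 4.12, 7.36, 4.18, 6.43, 9.85 and 5.83 FPKM in the same order of cells. Its footprints were 2.44, 5.56, 5.25, 4.26, 12.8 and 4.88 FPKM. Quiescent and senescent cells held the highest RNA levels of this kinase, and senescent cells, as titled, by far the highest footprint level, although all of these are low values. EIF5A and EIF5AL1 were the members called lower in RNA in quiescence, at -0.85 and -0.66, with the uncertainty of near-identical copies. EIF5A2, a separate gene for the same factor, had a TE difference of -0.81. Among the Argonautes, which carry small RNAs and are no initiation factors, EIF2C1 was higher in TE by 1.03, from a footprint level of 2.00 FPKM, but its runs differed by 1.74. EIF2C3 was lower, at -0.77.

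**Figure D1:**
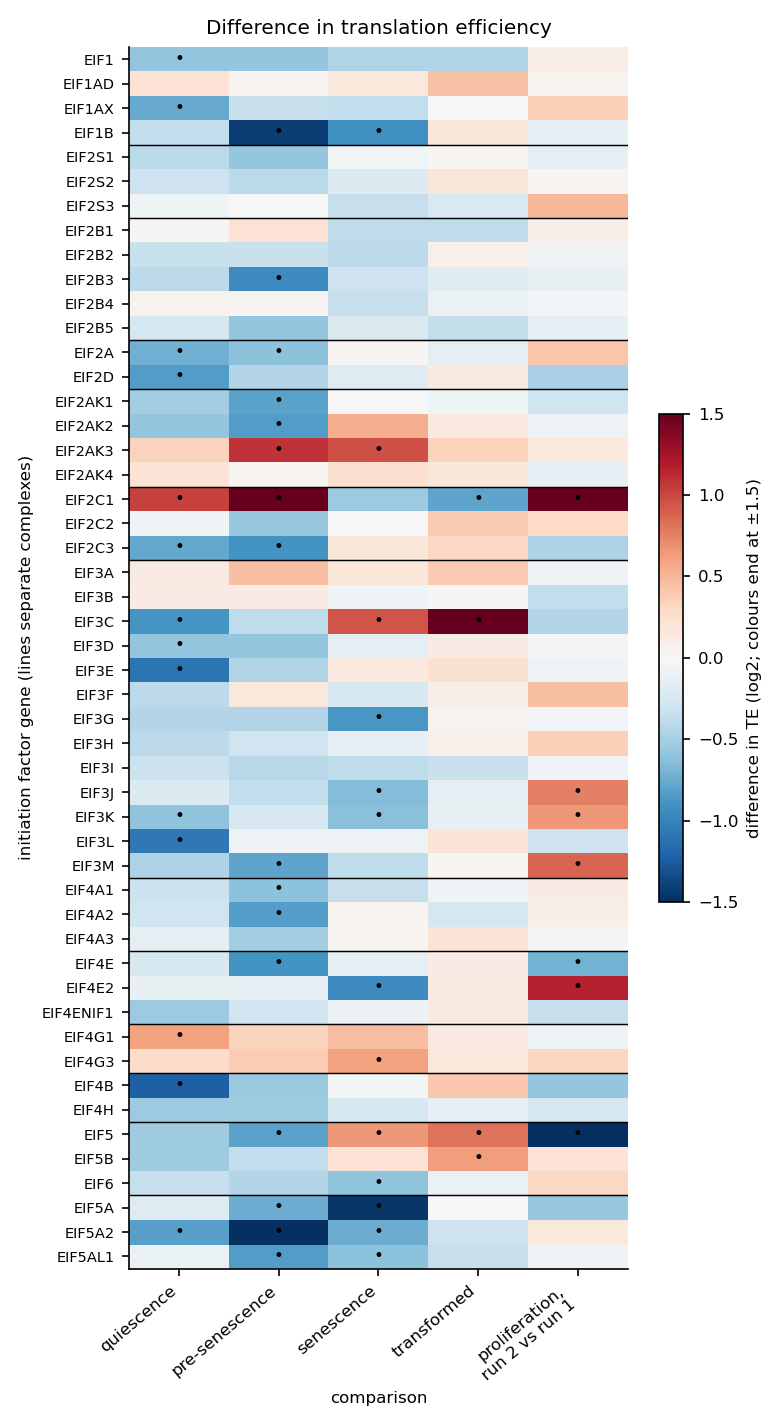
Difference in TE (log2) of the 50 members, in rows, in 5 comparisons, in columns, from blue (lower) to red (higher), with a dot where the difference was past 1.5-fold and lines between complexes. In quiescence 12 members were lower and 2 higher, and the right column, proliferating cells of the second against the first run, shows the size of the run difference, with 2 lower and 5 higher.

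Members with and without a pyrimidine run at their annotated start were set side by side, since TE of cytosolic ribosomal protein genes, most of which hold one, had a median difference of -1.11 in quiescence, with 73 of 75 called lower. Among those genes, 51 of 52 with a run and 8 of 9 without were lower, at medians of -1.11 and -1.01. The part of the run there was not tested. Of the 16 members that held a run, 8 were lower in TE in quiescence, at a median of -0.56. Of the 26 that held none, 2 were lower (7.69%), at a median of -0.29. The 8 were EIF4B, EIF3C, EIF2D, EIF5A2, EIF2A, EIF3K, EIF3D and EIF1, and the 2 were EIF2C3 and EIF1AX. The matched runs of EIF3C, EIF5A2 and EIF1 lie wholly in the 5 bases before the annotated start, outside the annotated transcript. The same holds for EIF5, which held a run but was not called lower in quiescence. Over all genes tested, 15.5% of those with a run and 12.2% of those without were lower. EIF2S3, with a run of 12 bases, had a TE difference of -0.06, EIF3F one of -0.40, and EIF4G1, which holds a run at 1 of 3 annotated starts, was higher. In pre-senescence, 5 of 16 with a run and 8 of 26 without were lower (31.2% and 30.8%), against 22.0% and 23.4% of all genes. In senescence they were 4 of 16 and 4 of 26, or 1 and 5 with the Ribo-Seq columns exchanged, against 17.8% and 18.1% of all genes as titled. In transformed cells they were 0 of 16 and 1 of 26, against 9.26% and 10.0%. The start that these cells used was not measured, and a run is a match of letters only.

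**Figure D2:**
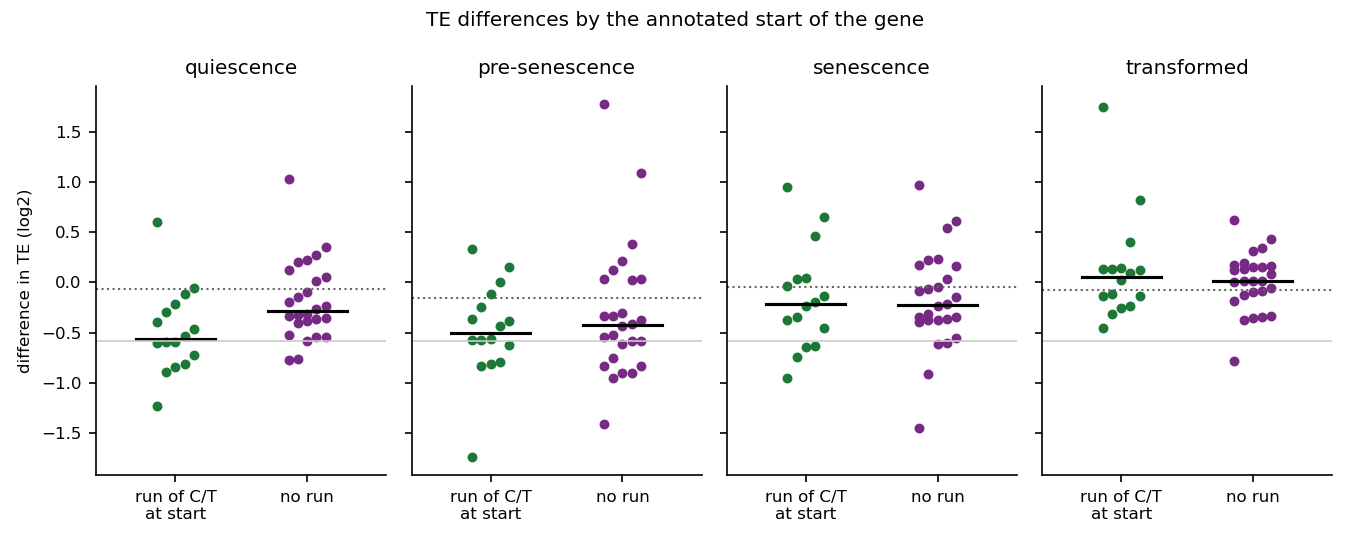
Difference in TE (log2) of the 42 members with a sequence, 1 point each, split by whether a run of C and T begins within 5 bases of the annotated start (16 with, green, and 26 without, purple). Black bars are medians, the grey line is 1.5-fold lower and the dotted line is the median over all genes tested, with member medians of -0.56 and -0.29 in quiescence.

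The second comparison took cells after 5 days of RASG12V, against the same proliferating cells as the first, so that a value of those cells enters both. RNA of the factors was not called in either direction for any of the 50 members, with a median of 0.14, where 6.6% of all genes were lower and 5.48% higher. Footprints were lower for 8 members and higher for 3, near or below the background of 22.9% and 15.1%, and the median was -0.27. TE was lower for 14 (28.0%) and higher for 2, against 22.7% and 13.4% of all genes, and the median was -0.44 beside -0.15 over all genes. Centred on the median of all genes, 12 were lower and 3 higher in TE, and 7 lower and 3 higher in Ribo-Seq. The share in TE thus lay near the background. At 2-fold, TE was lower for 2.

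The members lower in TE in pre-senescence were led by EIF5A2, EIF1B, EIF2B3 and EIF4E. EIF5A2 RNA was 5.95, 5.56, 6.80, 4.83, 7.39 and 4.66 FPKM, in the order of proliferating, quiescent and pre-senescent cells of the first run and proliferating, senescent and transformed cells of the second. Footprints on EIF5A2 were 27.5, 14.7, 9.42, 24.9, 22.8 and 19.4 FPKM, lowest in pre-senescent cells, for a TE difference of -1.74 (a ratio of 0.299). EIF1B, the second EIF1 gene, had RNA of 33.0, 37.0, 36.2, 26.6, 34.7 and 24.5 FPKM. Its footprints were 90.2, 78.5, 37.2, 66.0, 45.5 and 68.2 FPKM, so pre-senescent and senescent cells had the lowest levels, and TE differed by -1.41 where the runs differed by -0.14. For EIF2B3, the gamma subunit of EIF2B, TE differed by -0.95 from RNA of 36.6 and 47.5 FPKM and footprints of 52.3 and 35.0. It was the single EIF2B subunit called, and EIF2B1 differed by 0.21. EIF4E differed by -0.90 with footprints of 92.1 and 64.1 FPKM, but its runs differed by -0.71.

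Within the EIF4 factors, the helicases EIF4A1 and EIF4A2 were called lower in TE in pre-senescence, at -0.62 and -0.83, and EIF4A3, which acts in the exon junction complex and not in initiation, differed by -0.53. EIF4B differed by -0.56, short of a call. In EIF3, only EIF3M was lower (-0.79, with 0.87 between runs), while EIF3E and EIF3L differed by -0.45 and -0.05. EIF3A footprints were 324 and 488 FPKM. No EIF2 subunit was called. Of the kinases, EIF2AK1 (HRI, the heme-regulated kinase) and EIF2AK2 (PKR, activated by double-stranded RNA) were lower in TE, at -0.81 and -0.83, and EIF2AK3 was higher by 1.08 with RNA nearly equal. EIF2C1 had the largest value of all, 1.78, from 2.00 to 6.70 FPKM of footprints, close to its difference between runs. EIF2A, EIF4E, EIF2B3 and EIF3D had the largest RNA differences, of 0.41, 0.38, 0.37 and 0.36.

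The third comparison took senescent cells after 14 days of RASG12V against proliferating cells of the second run. No member was lower in RNA, 5 were higher (EIF3H, EIF2S2, EIF2AK3, EIF5A2 and EIF3K), and the median was 0.17, where 22.0% of all genes were lower and 18.5% higher. Ribo-Seq was lower for 2 and higher for 4 (median -0.02), against 29.3% and 20.4%. TE was lower for 9 members (18.0%) and higher for 4, against 18.1% and 12.8% of all genes, with a median of -0.17 beside -0.05. The factors as a list were therefore called in TE about as often as genes in general. At 2-fold, TE was lower for 1 (EIF5A). Centred on the median of all genes, TE was lower for 6 and higher for 5, and Ribo-Seq lower for 2 and higher for 8. With the Ribo-Seq columns of senescent and proliferating cells exchanged, TE was lower for 9 and higher for 7, and Ribo-Seq lower for 4 and higher for 2. Cytosolic ribosomal proteins had a median TE difference of -0.68 in senescence, or 0.53 with the columns exchanged.

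Single members stood out in senescence. EIF5A RNA was 14.9, 8.27, 18.5, 51.6, 58.9 and 60.6 FPKM in the order given above. Footprints on EIF5A were 223, 108, 165, 519.9, 217 and 615 FPKM, with the senescent value under that of both other columns of its run, and TE differed by -1.45 where the runs differed by -0.57. With the columns exchanged, the difference was 1.07. The near-identical EIF5AL1 had a TE difference of -0.61 (0.08 exchanged) and EIF5A2 one of -0.74 (-0.49 exchanged). All 3 genes of the factor were thus called lower with the columns as titled, but levels of the near-identical EIF5A and EIF5AL1 are uncertain. EIF3G, a subunit with an RNA-binding domain, had RNA of 199.6, 184, 209, 106, 131 and 125 FPKM. Its footprints were 337, 229, 261, 172, 116 and 212 FPKM, lowest in senescence, and TE differed by -0.87 (0.26 exchanged), with -0.05 between runs. EIF1B differed by -0.92 (0.16 exchanged). For EIF4E2 the difference was -0.95 (0.79 exchanged), below the 1.16 between runs in size, from footprints of 105 and 57.4 FPKM.

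In all, 4 of the 13 EIF3 subunits were called in TE in senescence. That is 23.1% lower and 7.69% higher, against 18.1% and 12.8% of all genes, so near the background. EIF3G, EIF3J and EIF3K were lower in TE, EIF3C was higher, and the median over the 13 was -0.13. EIF3J, a loosely bound subunit that reaches the decoding centre, differed by -0.65 (-0.27 exchanged) and EIF3K by -0.63 (-0.57 exchanged), both short of their difference between runs in size (0.75 and 0.65). EIF3K RNA was 138, 144, 155, 97.0, 147 and 107 FPKM. EIF3K footprints were 169, 115, 160.5, 186, 182 and 189 FPKM, so in senescence its RNA was higher and its footprints nearly equal. EIF3H had the largest RNA difference, at 89.8, 91.0, 113, 71.9, 133 and 77.4 FPKM. Footprints on EIF3H were 142, 109.8, 146, 146, 247 and 165 FPKM, and both readings were highest in senescent cells as titled (a Ribo-Seq difference of -0.76 exchanged). EIF3C was at the floor of 1 FPKM in Ribo-Seq of second-run proliferating cells, with 1.84 in senescent and 3.55 in transformed cells and RNA of 1.30, 1.24 and 1.38, so its TE differences of 0.95 and 1.74 rest on values at or near the floor. The senescent difference was -0.81 with the columns exchanged.

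EIF2 and EIF2B had no TE call in senescence with the columns as titled. With both exchanged, EIF2S2 was called lower, at -1.22. All 5 EIF2B subunits lay between -0.39 and -0.22 in TE, a narrow band below 0, but between -0.77 and 0.86 with the columns exchanged, when 2 were lower and 1 higher. EIF2S2 RNA was 95.0, 92.8, 105, 56.2, 92.4 and 68.9 FPKM, a difference of 0.72, while the runs differed by -0.76. EIF4B, which led in quiescence, had a TE difference of -0.03 in senescence, or 0.68, past 1.5-fold, when exchanged. EIF2AK3 differed by 0.62 in RNA, 1.58 in Ribo-Seq and 0.97 in TE, and TE by -2.20 with the columns exchanged. EIF5, the factor that makes EIF2 hydrolyse GTP, had RNA of 69.8, 56.5, 74.1, 53.8, 47.9 and 59.3 FPKM. Its footprints were 126, 70.8, 76.7, 33.8, 47.2 and 65.5 FPKM, and the proliferating column of the second run was the lowest of all 6, so its TE was higher in senescence by 0.65 (-0.31 exchanged) where the runs differed by -1.53. EIF6 was lower in TE, at -0.60 (-0.17 exchanged). EIF4G3 was higher by 0.61 (0.19 exchanged).

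**Figure D3:**
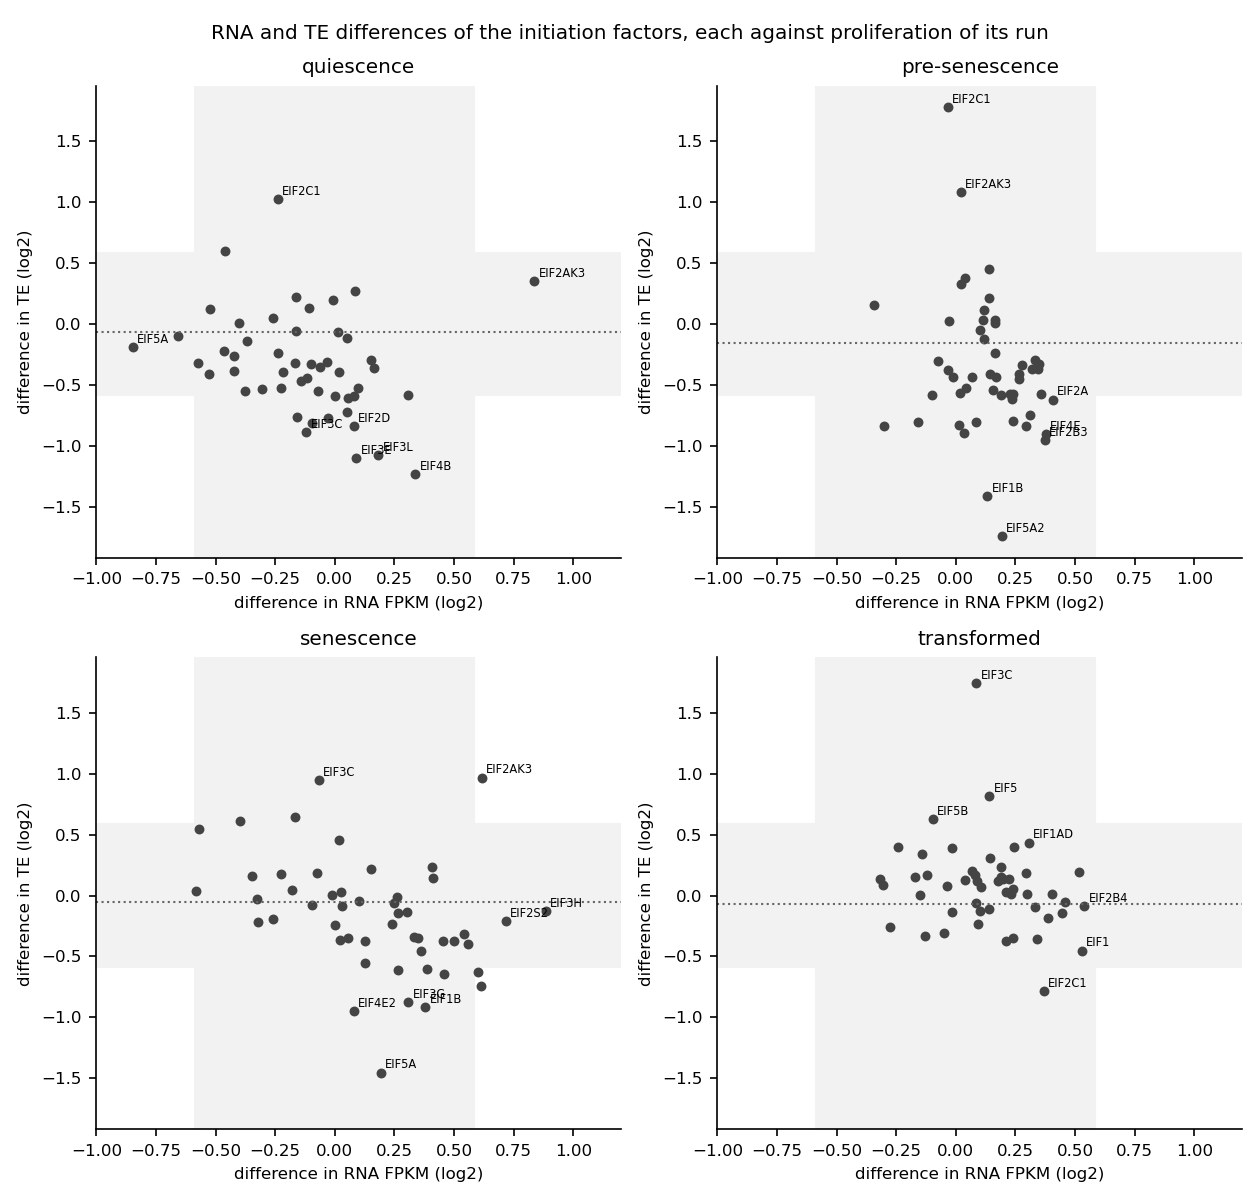
Difference in RNA (horizontal) against difference in TE (vertical), both log2, of the 50 members in 4 comparisons, each against proliferating cells of its run, with grey bands within 1.5-fold and a dotted line at the TE median of all genes tested. In quiescence 12 members lay below the TE band and 2 below the RNA band, and in transformed cells 1 lay below the TE band.

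The fourth comparison set the library labelled transformed against the same proliferating cells of the second run. No member was called in RNA (10.9% of all genes were lower and 12.1% higher), and RNA differences were largest for EIF2B4 (0.54), EIF1 (0.53), EIF4A3 (0.52) and EIF4A1 (0.46). Ribo-Seq was higher for 5 members (EIF3C, EIF5, EIF1AD, EIF4A3 and EIF3A) and lower for none, against 12.2% higher and 15.2% lower. TE was lower for EIF2C1 alone and higher for EIF3C, EIF5 and EIF5B, against 9.87% and 4.25% of all genes, and the median was 0.08 beside -0.07. EIF5B, the GTPase of subunit joining, had footprints of 84.5, 50.1, 82.9, 77.5, 100.3 and 112 FPKM, highest in transformed cells. Its TE differed by 0.63 (0.25 exchanged), beside 0.22 between runs. EIF5 differed by 0.81 (0.33 exchanged), less in size than between runs, and EIF2C1 by -0.79 (-0.36 exchanged). TE differences of EIF1AD and EIF1 were 0.43 and -0.45, short of a call, or 0.62 and -0.36 when exchanged, the former past 1.5-fold. EIF4B, EIF3E and EIF3L lay above 0, at 0.40, 0.23 and 0.20, or 0.76, -0.32 and 0.37 when exchanged. With the Ribo-Seq columns of senescent and proliferating cells exchanged, 2 members were lower in TE and 9 higher.

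Senescent cells were also set directly against transformed cells, since both are labelled as carrying RASG12V and came from the same run. RNA was lower for 4 members and higher for 5, where 26.2% and 18.3% of all genes were called. Centred on the median of all genes, these became 2 and 6. EIF4A3 differed by -1.10, EIF3H by 0.78, EIF2AK3 by 0.76 and EIF2AK2 by -0.76. EIF4A3 RNA was 40.4 FPKM in senescent and 86.5 in transformed cells. Footprints were lower for 7 members and higher for 1 in senescent cells, against 29.6% and 22.5%, or 7 and 3 when centred. TE was lower for 5 (EIF5A, EIF1B, EIF4E2, EIF3G and EIF3C) and higher for EIF2AK3, against 11.3% and 12.9%. TE was below 0 for 39 of 50 members, beside 4233 of all 8831 genes, at a median of -0.24 where that of all genes was 0.02. All 13 EIF3 subunits and all 3 EIF2 subunits lay below 0 in TE. The EIF3 subunits were all below 0 with the columns exchanged too. That setting pairs footprints titled for proliferation with senescent RNA, so it shows only how far the signs rest on the assignment. EIF5A differed by -1.46, EIF1B by -1.08, EIF4E2 by -1.08, EIF3G by -0.93, EIF3C by -0.79 and EIF2AK3 by 0.63. With the senescent and proliferating Ribo-Seq columns exchanged, these were -0.20, -0.55, -0.21, -0.36, -1.67 and -0.95, with 9 members lower and 2 higher.

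**Figure D4:**
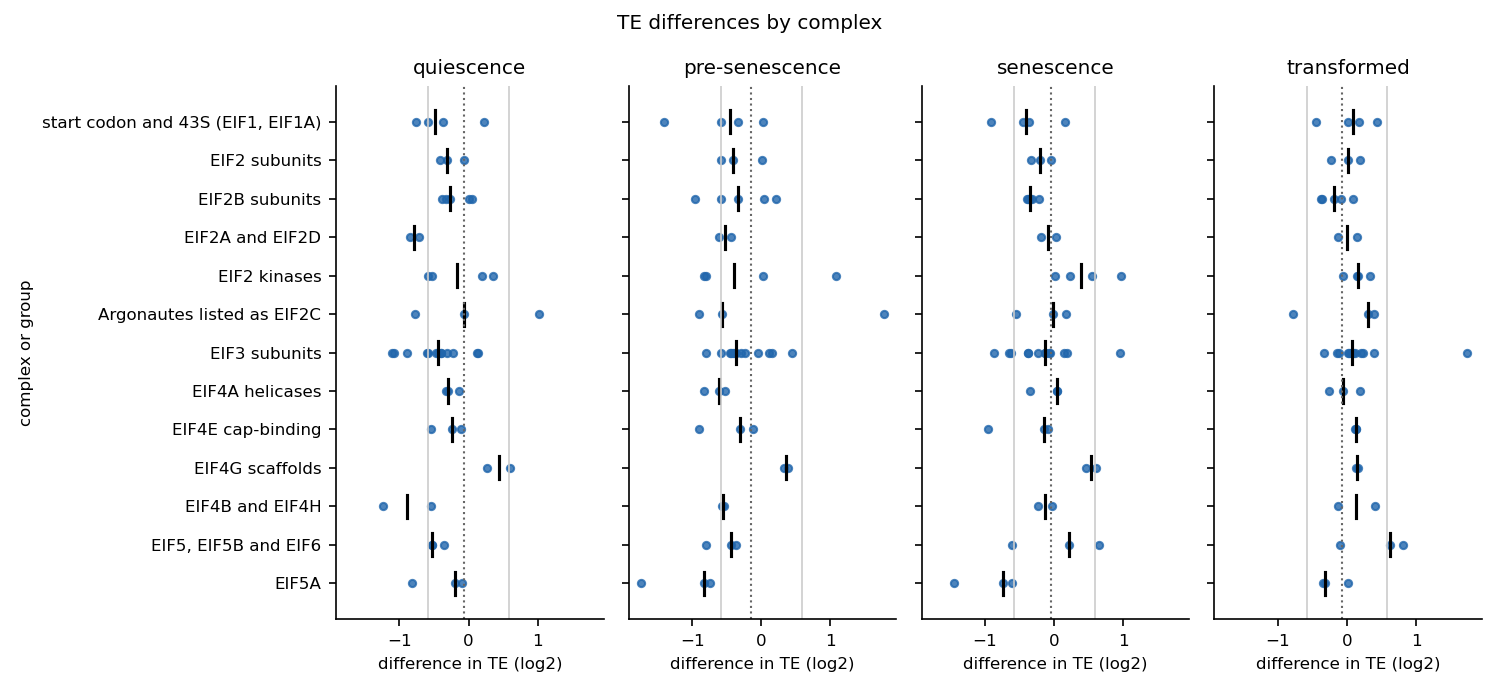
Difference in TE (log2) of each member (blue points) by complex or group, against proliferating cells of the same run, with black bars at the median of the group, grey lines at 1.5-fold and a dotted line at the median of all genes tested. EIF4G scaffolds lay above 0 in all 4 panels with the columns as titled (medians of -0.15 in senescence and -0.20 in transformed cells exchanged), EIF2A with EIF2D had a median of -0.78 in quiescence, and the median of EIF5A genes was -0.74 in senescence (0.08 exchanged).

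Set side by side by complex, median TE differences in quiescence, pre-senescence, senescence and transformed cells were -0.31, -0.41, -0.21 and 0.01 for the 3 EIF2 subunits. For the 5 EIF2B subunits they were -0.26, -0.33, -0.35 and -0.18. The 13 EIF3 subunits had -0.44, -0.37, -0.13 and 0.07, and the 9 EIF4 factors -0.23, -0.54, -0.03 and 0.13. With the columns exchanged, the senescent medians were -0.32 for EIF2, -0.35 for EIF2B, -0.47 for EIF3 and 0.24 for EIF4. The transformed medians were then -0.22 for EIF2, -0.09 for EIF2B, -0.05 for EIF3 and -0.005 for EIF4, so those of EIF2, EIF3 and EIF4 crossed 0. Members of 1 complex were spread around its median: in quiescence EIF4 factors ran from -1.23 to 0.60, and EIF3 subunits from -1.10 to 0.13. EIF2 subunits ran from -0.41 to -0.06. Medians vary less than single members by their nature, so whether complexes differ from each other was not tested. Over the 6 sets of cells as titled, TE was lowest in pre-senescence for 19 members, in quiescence for 16, in senescence for 6, in either proliferating set for 4 each, and in transformed cells for 1 (EIF2B1, at 0.82 beside 0.82 in senescence). Median TE over all genes tested was also lowest in pre-senescence, at 0.26, beside 0.35 in quiescence, 0.36 in senescence and 0.37 in transformed cells. These counts rank columns across both runs, and the same counts over all genes were not made. As titled, EIF5A2 and EIF3K were lower in TE in both quiescence and senescence, and EIF3C was lower in the former and higher in the latter.

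The difference between runs is the only gauge of spread for these values, and does not measure the error within a run. In proliferating cells of the second against the first run, RNA was below 0 for 44 of 50 members, with a median of -0.37 beside -0.07 over all genes, and was lower for 11 and higher for 3 (14.4% and 11.4% of all genes). Ribo-Seq was lower for 15 and higher for 4 (20.5% and 20.3%). TE was lower for EIF5 and EIF4E and higher for EIF2C1, EIF4E2, EIF3M, EIF3J and EIF3K (11.3% and 15.2%), with a median of -0.04. The median size of a member's difference between runs was 0.45 in RNA, 0.48 in Ribo-Seq and 0.24 in TE. RNA of the second run was from single-end and that of the first from paired-end libraries, whose part in this was not tested. Against the proliferating cells of the other run, the members' median RNA difference was 0.22 in quiescence, -0.19 in senescence and -0.22 in transformed cells, and the median Ribo-Seq difference was 0.09 in pre-senescence and -0.22 in transformed cells, each on the other side of 0. Median TE differences were -0.34, -0.43, -0.18 and 0.05 in the order of the comparisons, on the same side as before.

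Elongation factors and regulators of initiation, from a list of 33 genes of which 30 were in the table, give the setting. Of 8 elongation factors, 5 were lower in TE in quiescence and none higher, against 13.3% and 10.6% of all genes. EEF1A1, which brings aminoacyl-tRNA to the ribosome, had RNA of 3018 and 4227 FPKM with footprints of 7688 and 5202, a TE difference of -1.05. EEF1B2, its exchange factor, differed by -1.03. Both were thus close to EIF3E and EIF3L in size. The repressor EIF4EBP1 had RNA of 119.6 in proliferating, 132 in quiescent and 103 FPKM in pre-senescent cells, and 41.6, 34.1 and 76.9 in proliferating, senescent and transformed cells of the second run. EIF4EBP1 footprints were 96.4, 156, 50.6, 74.6, 27.3 and 79.2 FPKM. Its TE differed by 0.55 in quiescence, -0.71 in pre-senescence, -1.17 in senescence and -0.80 in transformed cells, so that, with the columns as titled, the quiescent cells alone lay above their proliferating cells. With the senescent and proliferating Ribo-Seq columns exchanged, the last 2 became 1.74 and 0.65. For EIF4EBP2 the values were 0.11, -0.42, -1.23 and -0.75, with 0.15 and -0.06 for the last 2 when exchanged. Proliferating cells of the second against the first run differed by 1.16 in TE of EIF4EBP2. In size that is near its senescent value and above its transformed one. RNA of EIF4EBP1 differed by -1.52 between the same cells, so values of both genes in the second run depend on its proliferating column.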

How the data were processed

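The deposited table holds FPKM, read counts that the authors scaled to transcript length and library size. Per the labels and the study's methods, the authors aligned HiSeq reads with Bowtie (hg19 in the submitters' processing notes) to 1 protein-coding transcript per gene, kept uniquely mapped reads, counted reads over the whole transcript in RNA-Seq and over the coding sequence in Ribo-Seq, and set FPKM under 1 to 1. How samples were pooled into columns is not given in the sources used here. The study lists read numbers per sample, but the table holds no counts per gene, so no counting interval is given. Columns of other samples numbered 0.

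Differences of log2 FPKM and of TE (log2 Ribo-Seq FPKM minus log2 RNA FPKM) were computed against proliferating cells of the same run in 8831 genes with a geometric mean of at least 2 FPKM in both assays (Python 3.11.15, pandas 2.3.3, numpy 2.4.6, figures with matplotlib 3.10.9). No pseudocount was added. With 1 column per condition there was no test, and a difference past 1.5-fold was called. The step was tested on simulated data. Members and lists were chosen with earlier results of these data known. Named were, per comparison, the 6 members with the largest TE and the 4 with the largest RNA difference, those past 1.5-fold in TE in both quiescence and senescence, and the highest and lowest RNA level of each complex. Others named as called or as subunits of a complex were chosen after their values were seen. Lists covered initiation complexes, cytosolic ribosomal proteins, elongation, termination and poly(A)-binding factors, regulators of initiation, and markers of proliferation, fibroblasts and other cells. Symbols were matched to RefSeq sequences by current or unique older name. EIF2C4, EIF3CL, EIF4E1B, EIF4E3 and EIF4G2 were not analysed here. The target of the second knockdown in the transformed cells is not reported here.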

Additional observations from a re-analysis of the deposited data

Results flagged for a closer look

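EIF5, the factor that makes EIF2 hydrolyse its GTP, differed in TE from proliferating cells in opposite directions at the 2 times of RASG12V induction, at -0.81 after 5 days and 0.65 after 14 days. The difference between the times was not tested, since each has 1 value. The times were read in different runs, against different proliferating cells, which themselves differed by -1.53 in TE of EIF5, more than either value. Its TE was 0.05 after 5 days and -0.02 after 14 days, beside 0.86 and -0.67 in the proliferating cells of the same runs, so the difference between the induced cells was smaller than that between the proliferating cells.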

How the results depend on the processing

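No paired analysis was possible because the table holds 1 column per group and run, and for the same reason leaving out a replicate was not run. The medians over the members, at 108 values under the alternatives in all, moved by less than the median size of the members' difference between runs (0.45 in RNA, 0.48 in Ribo-Seq and 0.24 in TE). That is a wide margin, and medians of RNA and Ribo-Seq crossed 0 against the other run, as given above. With the senescent and second-run proliferating Ribo-Seq columns exchanged, the median moved across 0 for Ribo-Seq in senescence (0.02) and TE in transformed cells (-0.02). The FPKM floor, and a table without counts, limit low members such as EIF3C, EIF2C1 and EIF2AK3.

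Counts of called members moved more. At 1.5-fold, lower and higher members numbered 2 and 1 in RNA, 23 and 2 in Ribo-Seq and 12 and 2 in TE in quiescence. They were 0 and 0, 8 and 3, and 14 and 2 in pre-senescence, 0 and 5, 2 and 4, and 9 and 4 in senescence, and 0 and 0, 0 and 5, and 1 and 3 in transformed cells. In senescent against transformed cells they were 4 and 5, 7 and 1, and 5 and 1. At 2-fold, RNA had 1 lower and none higher in senescent against transformed cells and none elsewhere, Ribo-Seq had 3 and 1, 3 and 2, 1 and 1, 0 and 1, and 3 and 1 in the same order, and TE 3 and 1, 2 and 2, 1 and 0, 0 and 1, and 3 and 0. By the spread of genes of like level (local SDs), RNA had none, Ribo-Seq 0 and 0, 2 and 0, 0 and 1, 0 and 1, and 0 and 0, and TE 4 and 1, 2 and 0, 0 and 0, 0 and 3, and 2 and 0. Against the other run's proliferating cells, RNA had 2 and 8, 2 and 21, 10 and 3, and 7 and 2, Ribo-Seq 10 and 2, 9 and 9, 15 and 4, and 7 and 4, and TE 16 and 2, 18 and 2, 9 and 3, and 2 and 7. With both Ribo-Seq columns exchanged, Ribo-Seq had 4 and 2, 1 and 7, and 5 and 0 in the last 3 comparisons, and TE 9 and 7, 2 and 9, and 9 and 2. A least mean of 10 FPKM left TE at 9 and 1, 12 and 0, 8 and 2, 0 and 2, and 4 and 0, Ribo-Seq higher at 0, 1, 2, 4 and 0, and RNA higher at 0 in quiescence and 3 in senescence and in senescent against transformed cells. With log2(FPKM + 1), RNA higher was 3 in senescence and 3 against transformed cells, Ribo-Seq higher 1 in quiescence, and TE higher 0 in senescent against transformed cells. Centring changed Ribo-Seq higher in senescence to 8 and TE lower there to 6, and in senescent against transformed cells RNA to 2 and 6 and Ribo-Seq higher to 3. The 42 core factors had no RNA or Ribo-Seq member higher in quiescence, 5 and 1 in Ribo-Seq in pre-senescence, 2 higher in senescence and 0 higher in senescent against transformed cells, and in TE 1 higher in quiescence, 0 higher in pre-senescence, 0 lower in transformed and 0 higher in senescent against transformed cells. Without EIF3C, EIF5A and EIF5AL1, an alternative chosen after seeing the data, RNA lower in quiescence was 0, Ribo-Seq lower in senescence 1, and TE lower in senescent against transformed cells 3. Without a filter on low values, the members' results were equal to those given.

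Called members that changed sign did so under 2 of the alternatives, and the cause was not tested. Against the proliferating cells of the other run, values became -0.0402 for EIF2S2 RNA in senescence. In Ribo-Seq they became 1.07 for EIF5, 0.0572 for EIF2B5, -0.33 for EIF2C1, 0.27 for EIF2C3, 0.0939 for EIF2D, 1.52 for EIF3C and 0.0057 for EIF4ENIF1 in quiescence, 1.18 for EIF5, 0.058 for EIF2B5 and 0.20 for EIF2C3 in pre-senescence, -1.65 for EIF3C and 0.56 for EIF4E2 in senescence, and -0.95 for EIF5 and -0.70 for EIF3C in transformed cells. In TE they became -0.71 for EIF2C1 in quiescence, 0.72 for EIF5 in pre-senescence, -0.88 for EIF5, 0.10 for EIF3J, 0.0177 for EIF3K and 0.21 for EIF4E2 in senescence, and -0.71 for EIF5 and 0.95 for EIF2C1 in transformed cells. With both Ribo-Seq columns exchanged, Ribo-Seq became 1.26 for EIF5A, -1.58 for EIF2AK3, -0.64 for EIF2AK4, -0.88 for EIF3C, -0.76 for EIF3H and 0.87 for EIF4E2 in senescence, and -0.20 for EIF2AK3 in senescent against transformed cells. TE became 0.16 for EIF1B, -0.31 for EIF5, 1.07 for EIF5A, 0.0814 for EIF5AL1, -2.20 for EIF2AK3, -0.81 for EIF3C, 0.26 for EIF3G and 0.79 for EIF4E2 in senescence, and -0.95 for EIF2AK3 in senescent against transformed cells.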

Other observations

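Factors of the other steps of translation, from the same list, differed in TE as follows. Of 6 genes of termination, recycling and reinitiation, 2 were lower in quiescence and 4 in pre-senescence (13.3% and 22.7% of all genes), and none was called in senescence or in transformed cells with the columns as titled (2 and 1 were lower with the Ribo-Seq columns of senescent and proliferating cells exchanged). DENR, which joins MCTS1 in reinitiation and in recycling the small subunit, had RNA of 41.8, 35.1 and 54.8 FPKM in proliferating, quiescent and pre-senescent cells. Footprints on DENR were 93.5, 38.5 and 43.7 FPKM, for TE differences of -1.03 and -1.48, while proliferating cells of both runs differed by -0.01. ETF1, the factor that reads stop codons, differed by -0.91 and -1.19 in TE. Both genes were named after their values were seen.

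Poly(A)-binding proteins and their partners (4 genes) had 1 member lower in TE in quiescence, 2 in pre-senescence and 1 in senescence, also when exchanged, where 13.3%, 22.7% and 18.1% of all genes were lower. Regulators of initiation (12 genes) had a median TE difference of 0.12 in quiescence, on the other side of 0 from the initiation factors, with 1 called lower and none higher. The elongation factors had medians of -0.68, -0.21, -0.16 and 0.07 in quiescence, pre-senescence, senescence and transformed cells, beside -1.11, -0.61, -0.68 and -0.02 for the cytosolic ribosomal proteins. With the senescent and second-run proliferating Ribo-Seq columns exchanged, the senescent and transformed medians were -0.08 and 0.11 for elongation factors and 0.53 and 0.63 for ribosomal proteins. These lists share the columns of the initiation factors, and their differences were not tested.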
